A study of Mus musculus with 30 samples.

Results

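Respiratory complex I passes electrons from NADH to ubiquinone in the inner mitochondrial membrane and pumps protons as it does so. Its matrix arm carries the flavin and the iron-sulfur clusters of the electron path, on core subunits that bacteria also have, and its membrane arm carries the proton channels, on core subunits that mitochondrial DNA encodes. The accessory subunits around this core, and the core subunits of the matrix arm, are encoded in the nucleus, made in the cytosol and imported. Fat cells build up mitochondria as they differentiate, and transcripts of complex I are among those that rise in that process.

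The genes described here are the nuclear complex I genes, taken by name (symbols that begin with Ndufa, Ndufb, Ndufc, Ndufs or Ndufv and a number, and the Ndufab1 symbols, without the Ndufaf assembly factors). They were 39 of the 57490 gene rows of the table. Of these, 38 reached 1 FPKM (fragments per kilobase of transcript, scaled to the fragments of a library) in at least 5 of the 30 libraries and were tested. The tested genes were 7 core subunits of the matrix arm, 9 accessory subunits of the matrix arm and 19 of the membrane arm, the acyl carrier protein Ndufab1, which sits in both arms, Ndufa4, and the processed pseudogene Ndufab1-ps. Ndufa4 was first described as a complex I subunit and is now assigned to complex IV. Ndufa4l2, a paralog of Ndufa4 known as a hypoxia target, was the gene that was not tested, with a mean of 0.0665 FPKM over all libraries and none above 0.228.

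RNA was sequenced from 30 cultures of 3T3-L1, an established mouse line of preadipocyte-like fibroblasts. All groups are labelled as differentiated cells and were kept in a differentiation medium with insulin and 3-isobutyl-1-methylxanthine, a phosphodiesterase inhibitor, and were left as controls or given quizalofop-p-ethyl (QpE), a herbicide, at 50 µM. The labels give 6 h, 24 h and 12 days, with 5 numbered cultures for each of the 6 groups, and the protocol describes a shorter time than the longest label, which is used as given. The study asked how QpE acts on the differentiation of these cells. All cultures are of 1 line, and nothing states that they were grown on separate days, so p-values measure the spread between these cultures.

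Depth was estimated at 9520000 to 17400000 fragments per library from the steps between low FPKM values, and FPKM totals ran from 413502 to 500489. Adipocyte markers were present: the summed FPKM of 10 such genes was 305 to 759 at 6 h and 1967 to 9912 at 12 days. At 12 days cultures 3 and 4 stood apart in both groups, with sums of 2835 and 1967 in controls and 4721 and 5467 with QpE, against 7116 to 7704 and 9425 to 9912 in the other 3 cultures. The endothelial markers Cdh5, Kdr and Tek stayed below 0.06 FPKM, and the macrophage markers Ptprc and Adgre1 were at or near 0. The muscle genes Myod1, Myog and Actn2 and the epithelial marker Epcam were at 0 in every library. Other markers of these lists were present. The summed FPKM of each full list was highest in QpE at 12 days. It reached 0.623 for endothelial, 5.35 for macrophage, 18.4 for muscle and 2.59 for epithelial markers. Counts of complex I genes called at 12 days are given below with and without cultures 3 and 4.

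Levels of the complex I genes spread widely within each library. At 6 h in controls their group means had a median of 61.0 FPKM, from 2.94 for Ndufab1-ps to 245 for Ndufa4. In QpE at 12 days the median was 131 FPKM, from 11.01 to 547 for the same pair of genes. Ndufa4, Ndufb8 and Ndufb9 were the most abundant over all libraries and Ndufab1-ps, Ndufa11 and Ndufc1 the least. The Spearman rho of group means over the 38 genes was 0.94 between controls at 6 h and at 12 days, 0.902 between controls at 6 h and QpE at 12 days, and 0.979 between controls and QpE at 12 days. These points share gene length and annotation.

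The mean of log2(FPKM + 1) over the 38 genes was 5.80 to 5.92 in the 5 control libraries at 6 h and 5.64 to 5.91 in the 5 QpE libraries. At 24 h it was 5.95 to 6.08 in controls and 5.91 to 6.26 with QpE, so the groups overlapped at both times. At 12 days controls had means of 6.74, 6.66, 6.53, 6.39 and 6.53 and QpE libraries had 7.01, 7.05, 7.08, 6.92 and 7.18. Every QpE library at 12 days lay above every control, and culture 4 was the lowest of both groups. The share of the FPKM total taken by the 38 genes was 0.590% to 0.651% in controls at 6 h, 0.895% to 1.14% in controls at 12 days and 1.23% to 1.48% in QpE at 12 days.

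**Figure D1:**
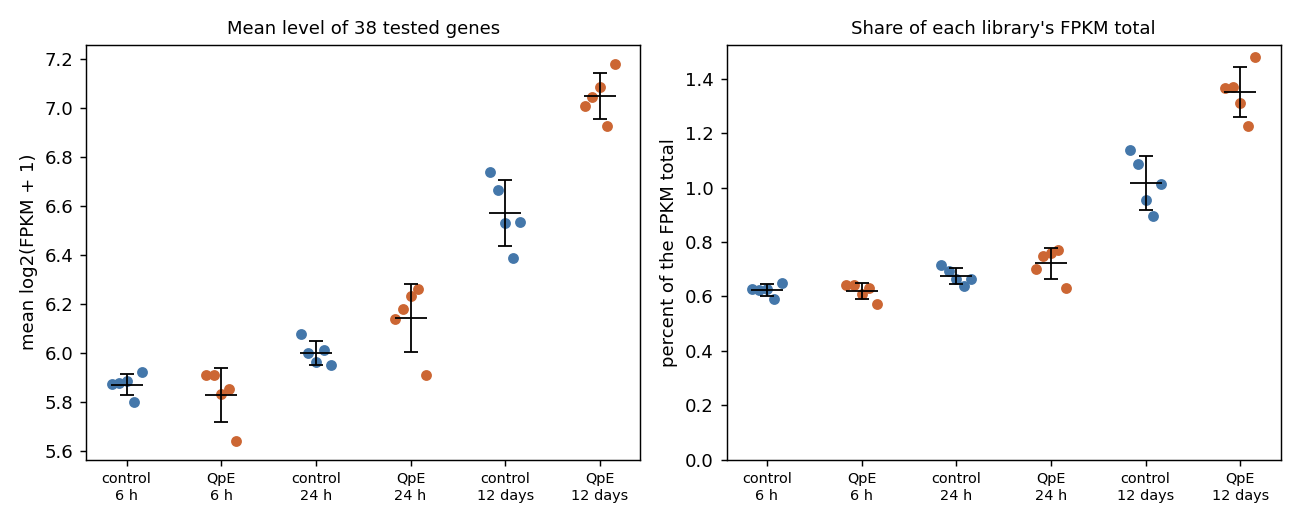
Mean log2(FPKM + 1) of the 38 tested complex I genes (left) and their percent of the FPKM total (right) in each of the 30 libraries (points, cultures 1 to 5 from left to right in a group); bars show the group mean and SD. The QpE libraries at 12 days sit between 6.92 and 7.18 on the left axis, above the control libraries at 6.39 to 6.74, and the groups overlap at 6 h and 24 h.

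At 12 days, 21 of the 38 complex I genes were higher with QpE than in controls and none was lower. The 21 include Ndufa4, now assigned to complex IV, and the processed pseudogene Ndufab1-ps. Of all 14626 genes tested, 5.06% were higher and 7.17% lower. The test was limma on log2(FPKM + 1) in the 10 libraries compared, two-sided, with Benjamini-Hochberg adjustment over all genes tested, and a gene is called at an adjusted p under 0.05; all log2 differences below are on this scale. The median difference of the 38 genes was 0.46 (range -0.03 to 0.98), beside a median of -0.002 over all genes. The QpE libraries lay above all control libraries for 21 of the 38 genes, against 6% of all genes, and QpE exceeded the control with the same culture number 5 times out of 5 for 32, against 17.1%. Differences were above 0 for 37 of 38 (49.8% of all genes), and 31 passed an unadjusted p under 0.05 (27.8%). In bulk RNA a change in the share of cells of a type cannot be told apart from a change in RNA per cell.

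By place in the complex, 4 of 7 core matrix arm genes, 6 of 9 accessory matrix arm genes and 9 of 19 accessory membrane arm genes were higher with QpE at 12 days, with medians of 0.53, 0.48 and 0.45. With the culture number as a block, 27 of the 38 genes were higher (8.77% of all genes), which added Ndufa1, Ndufa2, Ndufa8, Ndufb3, Ndufb6 and Ndufs3 and lost none. Without cultures 3 and 4 the median difference was 0.44, and 2 genes, Ndufs1 and Ndufv2, were called higher, as were 0.697% of all genes. Leaving out control culture 4, control culture 5 or QpE culture 3 alone gave 13, 11 and 13 genes called higher. The shares of all genes called in these fits are not given, so the counts do not show whether the fall is particular to these genes. Scaled to TPM (a fixed total per library), 16 were higher, and all genes split into 3.12% higher and 9.07% lower.

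**Figure D2:**
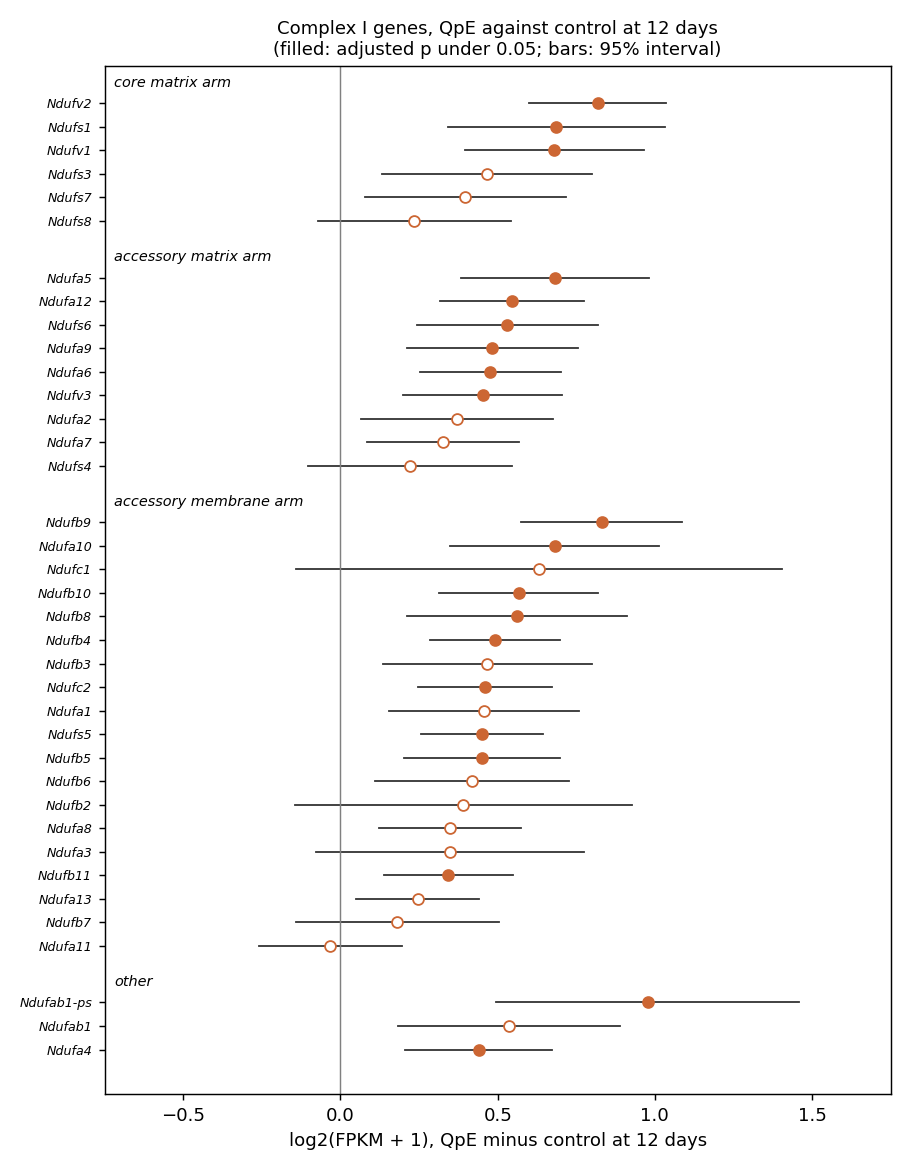
Difference in log2(FPKM + 1) between QpE and control at 12 days for 37 of the 38 tested genes (points) with its 95% interval (bars), grouped by place in the complex; filled points had an adjusted p under 0.05. Differences run from -0.03 for Ndufa11 to 0.98 for Ndufab1-ps, and the others shown lie above 0.

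Among the core subunits, Ndufv2, Ndufs1 and Ndufv1 of the electron input end had the largest differences. Ndufv2, which holds an iron-sulfur cluster beside the flavin (chr17:66078638-66101559, minus strand, GRCm38), had 100.0, 104, 92.3, 75.8 and 90.2 FPKM in the control libraries and 146, 169.8, 163, 168 and 168 FPKM in the QpE libraries. The groups were far apart, with 1 control library lower than the rest and 1 QpE library lower than the rest. The difference was 0.82 ± 0.10 (SE; adjusted p = 0.00753), and Ndufv2 levels before 12 days were 56.6 to 77.3 FPKM. With the most abundant transcript only, the Ndufv2 difference was 0.59 and was not called (limma adjusted p = 0.116). That transcript held 46.5% of the gene's FPKM in QpE culture 2 at 12 days, and 89.8% to 95.5% in the other QpE cultures. Ndufs1, the largest subunit, which carries several clusters, had 92.6, 84.8, 56.4, 59.3 and 79.6 FPKM in controls and 129, 123, 103, 103 and 137 FPKM with QpE. Controls 3 and 4 were the lowest there, and the groups did not overlap, with a difference of 0.69 ± 0.16 (SE; adjusted p = 0.0223). With the most abundant transcript only, Ndufs1 was not called either (0.73, limma adjusted p = 0.218). Ndufv1, which binds NADH and the flavin, had 197, 197, 156, 139 and 187 FPKM in controls and 267, 273, 287, 244 and 326 FPKM with QpE, again without overlap. The Ndufv1 difference was 0.68 ± 0.13 (SE; adjusted p = 0.0146).

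The core subunits Ndufs3, Ndufs7 and Ndufs8 had smaller differences and were not called. Ndufs3, which carries no cluster, had 134, 124, 79.3, 90.6 and 113 FPKM and 156, 159, 141, 123 and 159.6 FPKM, with overlapping groups, and a difference of 0.47 ± 0.15 (SE; adjusted p = 0.0708). Ndufs7, which carries the last cluster of the path, had 84.9, 93.9, 99.0, 79.5 and 85.3 FPKM in controls and 101, 115, 129, 90.4 and 158 FPKM with QpE, where culture 5 was the highest. The Ndufs7 groups overlapped and the difference of 0.40 ± 0.14 (SE; adjusted p = 0.101) was not called. Ndufs8, another cluster-bearing subunit, had 85.5, 80.9, 67.0, 62.1 and 88.5 FPKM and 95.8, 96.3, 92.3, 67.6 and 101 FPKM, with QpE culture 4 inside the control range and a difference of 0.23 ± 0.14 (SE; adjusted p = 0.307). In this gene 65.5% of the FPKM came from unnamed assembled transcripts that were joined to it by locus, as did 32.1% in Ndufv1 and 24.2% in Ndufs1. All 7 core genes were higher with QpE within all 5 pairs of cultures.

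Among the other genes, Ndufb9, an accessory subunit at the far end of the membrane arm, had 274, 257, 237, 228 and 227 FPKM in controls and 395, 383, 462, 424 and 526 FPKM with QpE. The groups did not overlap, and the difference was 0.83 ± 0.12 (SE; adjusted p = 0.00789). Ndufa5, an accessory subunit on the matrix arm, had 54.5, 49.5, 62.7, 60.2 and 44.8 FPKM and 77.7, 69.9, 96.2, 106 and 90.8 FPKM, also without overlap, and a difference of 0.68 ± 0.13 (SE; adjusted p = 0.0155). Ndufa10, a membrane arm subunit with a nucleoside kinase fold, had 124, 110.1, 98.7, 76.0 and 96.9 FPKM in controls and 162, 122, 179, 173 and 177 FPKM with QpE. QpE culture 2 was the only one of its group below the highest control, and the difference was 0.68 ± 0.15 (SE; adjusted p = 0.0207). Ndufab1-ps was low throughout, with 7.58, 4.91, 6.20, 2.81 and 4.65 FPKM in controls and 8.74, 8.40, 12.8, 12.5 and 12.6 FPKM with QpE, and had the largest difference, 0.98 ± 0.22 (SE; adjusted p = 0.0213). Since a processed pseudogene copies its parent's exons, how its reads were shared with Ndufab1 is uncertain. Ndufab1 itself had 46.4, 52.4, 36.7, 31.5 and 36.3 FPKM and 51.5, 55.1, 56.0, 54.2 and 78.9 FPKM, with QpE culture 1 just below the highest control and a difference of 0.54 ± 0.16 (SE; adjusted p = 0.053).

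Ndufa4, the most abundant gene, had 461, 415, 384, 366 and 392 FPKM in controls and 553, 573, 571, 488 and 550.0 FPKM with QpE, without overlap, and a difference of 0.44 ± 0.11 (SE; adjusted p = 0.0268). Ndufb8, a membrane arm subunit that is often used as a marker of assembled complex I, had 289, 279, 215, 207 and 262 FPKM and 372, 401, 349.7, 275 and 462 FPKM. QpE culture 4 fell inside the control range of Ndufb8, and the difference was 0.56 ± 0.16 (SE; adjusted p = 0.0439). A further 11 called genes, Ndufa6, Ndufa9, Ndufa12, Ndufs6 and Ndufv3 of the matrix arm and Ndufb4, Ndufb5, Ndufb10, Ndufb11, Ndufc2 and Ndufs5 of the membrane arm, had differences from 0.34 ± 0.09 for Ndufb11 to 0.57 ± 0.11 for Ndufb10 (SE). In all 11 the groups did not overlap.

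Ndufs3, Ndufs7, Ndufs8, Ndufab1 and another 12 genes with differences above 0 were not called. Ndufa11, a membrane arm subunit near the contact with complex III, was the only one with a difference below 0. It had 24.2, 23.3, 26.1, 22.1 and 26.2 FPKM in controls and 24.2, 26.1, 20.02, 21.4 and 27.9 FPKM with QpE, fully mixed, and a difference of -0.03 ± 0.10 (SE), with a 95% interval of -0.26 to 0.20. The named transcript of Ndufa11 does not lie fully within the annotated gene span, and the sign turned when unnamed transcripts were left out (0.061). Ndufc1, a small membrane arm subunit, had 44.8, 25.6, 26.2, 18.3 and 66.0 FPKM and 48.8, 93.3, 49.2, 36.3 and 42.6 FPKM. These ranges overlapped in most cultures, and its difference of 0.63 ± 0.35 (SE; adjusted p = 0.272) had the widest error of all 38 genes. In the highest library of each group, control culture 5 and QpE culture 2, a transcript of 315 bases held 88.4% and 79.3% of the Ndufc1 FPKM. That transcript was at 0 in the other 12 day libraries, so the spread of Ndufc1 rests in part on how reads were divided among transcripts. Ndufb2 of the membrane arm had 72.9, 87.1, 54.3, 53.8 and 42.7 FPKM and 101, 112, 66.1, 51.2 and 82.5 FPKM, and Ndufa3, another membrane arm subunit, 71.8, 87.0, 81.8, 49.3 and 55.0 FPKM and 71.5, 121, 72.5, 83.4 and 90.0 FPKM. Both pairs of groups overlapped, with differences of 0.39 ± 0.24 and 0.35 ± 0.19 (SE).

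Ndufs4, an accessory matrix arm subunit whose loss in mice is a model of Leigh syndrome, had 62.1, 57.4, 57.8, 49.2 and 44.1 FPKM in controls and 74.0, 59.0, 48.6, 58.1 and 79.1 FPKM with QpE. QpE culture 3 was below all but 1 control, and the difference was 0.22 ± 0.15 (SE; adjusted p = 0.362). Ndufb7 of the membrane arm had 100.4, 103, 72.9, 81.5 and 96.8 FPKM and 119, 89.8, 96.6, 83.8 and 129 FPKM, mixed in order, and a difference of 0.18 ± 0.15 (SE; adjusted p = 0.464). Ndufs4, Ndufb7, Ndufa11, Ndufa3, Ndufb2, Ndufc1 and Ndufs8 were called in none of the 20 other settings and single left-out libraries tried, nor without cultures 3 and 4 together.

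In 3 genes the groups did not overlap and the test still missed the threshold. Ndufa1, an X-linked membrane arm subunit, had 133, 131, 120.0, 90.7 and 92.6 FPKM in controls and 171, 172, 139.7, 136 and 153 FPKM with QpE (difference 0.46 ± 0.14 SE, adjusted p = 0.0544). Ndufa7 of the matrix arm had 219, 193, 219, 239 and 212 FPKM and 241, 248, 329, 265 and 279 FPKM (difference 0.33 ± 0.11 SE, adjusted p = 0.0782). Ndufa13, also known as Grim-19, had 102, 89.8, 103, 98.6 and 83.5 FPKM and 104, 111, 126, 109 and 115 FPKM (difference 0.25 ± 0.09 SE, adjusted p = 0.0983). In each, the lowest QpE library lay only just above the highest control.

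Ndufa2, a small matrix arm subunit with a thioredoxin-like fold, had 144, 126, 154, 147 and 112 FPKM in controls and 144, 161, 206, 213 and 164 FPKM with QpE, and Ndufa8, a membrane arm subunit on the side of the intermembrane space, 163, 150.3, 125, 134 and 147 FPKM and 175, 182, 193, 161 and 205 FPKM. Cultures 3 and 4 were the highest with QpE in Ndufa2, and in each gene 1 QpE library fell inside the control range. Ndufb3 had 118, 109.9, 71.3, 72.1 and 81.7 FPKM and 132, 128, 114, 119.6 and 121 FPKM, and Ndufb6 107, 109, 82.8, 70.2 and 88.1 FPKM and 123, 138, 121, 98.1 and 127 FPKM, both of the membrane arm. Control cultures 1 and 2 were the highest controls in both, and 1 QpE library of each gene fell inside the control range. The differences of these 4 genes were 0.37 ± 0.14, 0.35 ± 0.10, 0.47 ± 0.15 and 0.42 ± 0.14 (SE), each higher within all 5 pairs, and each was called when the culture number was a block.

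The 12 day libraries with QpE also differed from controls in markers of the cells. The summed FPKM of 8 preadipocyte or fibroblast markers was 5543 to 6615 in controls and 456 to 2589 with QpE, and 6 of the 8 were lower, among them Dlk1 (-1.54 ± 0.28 SE), a marker of undifferentiated preadipocytes, and the collagen gene Col1a1 (-1.87 ± 0.40 SE). Of 10 adipocyte markers 1 was higher, Pparg (0.73 ± 0.21 SE, adjusted p = 0.0481), the master regulator of fat cell differentiation. With the culture number as a block, 7 of the 8 preadipocyte or fibroblast markers were lower, 4 of the 10 adipocyte markers were higher, and Des and the macrophage gene Cd68 were higher. Among all genes tested, 5.06% were higher and 7.17% lower, or 8.77% and 10.3% with the block. The adipocyte sum was 1967 to 7704 FPKM in controls and 4721 to 9912 with QpE. Des, a muscle intermediate filament gene, was 4.64 to 9.56 FPKM in controls and 8.76 to 18.4 with QpE (0.91 ± 0.21 SE), while the other 3 muscle markers were at 0. The summed FPKM of 4 epithelial markers was 0 to 0.0915 in controls and 0.274 to 2.59 with QpE, and that of 4 endothelial markers 0.144 to 0.541 and 0.109 to 0.623. Cd68 was 1.02 to 3.62 FPKM in controls and 2.02 to 5.35 with QpE, with Ptprc and Adgre1 at or near 0. The part of these marker levels in the complex I result was not tested.

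At 6 h no complex I gene was called, nor at 24 h. Of all genes tested, 0.00684% were called in either direction at 6 h and 0% at 24 h. The median difference of the 38 genes was -0.05 at 6 h, with 10 of 38 above 0, and 0.14 at 24 h, with 36 of 38 above 0. Of all genes, 44.3% were above 0 at 6 h and 53.4% at 24 h. At an unadjusted p under 0.05, 1 complex I gene passed at 6 h and 5 at 24 h, against 2.75% and 8.79% of all genes. At 24 h the largest difference among subunits of the complex was that of Ndufb5 (0.28 ± 0.12 SE, adjusted p = 0.552). QpE culture 5 was the lowest QpE library in the mean of the 38 genes at both 6 h and 24 h, at 5.64 and 5.91.

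Whether the QpE difference was larger at 12 days than at 24 h was tested as an interaction over the 20 libraries. Ndufv2 alone was called, with a change of difference of 0.69 ± 0.13 (SE; adjusted p = 0.0304), where 0.28% of all genes were called higher and 0.677% lower. Ndufv2 had 64.5, 68.0, 58.8, 65.4 and 62.5 FPKM in controls at 24 h and 65.4, 75.0, 76.6, 77.3 and 56.6 FPKM with QpE, which overlapped. The median change of difference over the 38 genes was 0.35, and 37 of 38 were above 0, against 47.7% of all genes. No gene was called without any 1 of the 5 controls at 24 h, of QpE cultures 1, 2 and 5 at 24 h, or of control cultures 3, 4 and 5 at 12 days. With the culture number as a block 5 genes were called, for which the share of all genes is not given. Without cultures 3 and 4 at 12 days 2 were called higher, against 1.79% of all genes.

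In the controls, few complex I genes were called between 6 h and 24 h and most between 24 h and 12 days. From 6 h to 24 h, 7 of 38 were higher and none lower (10.5% and 12% of all genes, respectively), with a median of 0.13. They were Ndufa2, Ndufa6, Ndufb3, Ndufb10, Ndufb11, Ndufc2 and Ndufs1. Ndufa6, an accessory subunit on the matrix arm, had 81.2, 82.7, 83.4, 76.5 and 84.9 FPKM at 6 h and 113, 102, 111, 110.0 and 95.4 FPKM at 24 h, which did not overlap (0.37 ± 0.06 SE, adjusted p = 0.00148). The named transcript of Ndufa6 does not lie fully within the annotated span of the gene. With TPM scaling 3 of the 38 were higher, against 9.09% of all genes, and with the spread shared by all 30 libraries 2 (share of all genes not given).

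From 24 h to 12 days in controls, 31 of 38 were higher and none lower, against 13.1% and 20.9% of all genes. The median was 0.56, beside -0.085 over all genes, and all 7 core genes were higher. Ndufs7 had 49.8, 41.5, 36.5, 43.3 and 45.9 FPKM at 24 h, below each of its 12 day controls given above, and the largest difference, 1.01 ± 0.09 (SE; adjusted p = 3.51e-05). Ndufa10 followed, with 51.8, 47.1, 48.7, 60.6 and 40.5 FPKM at 24 h and a difference of 1.00 ± 0.14 (SE; adjusted p = 0.0004), then Ndufa9 with 0.94 ± 0.11 (SE; adjusted p = 0.000144) and Ndufv1 with 0.92 ± 0.10 (SE; adjusted p = 0.000121). The 7 genes not called were Ndufa1, Ndufa3, Ndufa5, Ndufab1-ps, Ndufb2, Ndufb7 and Ndufv3. Without control cultures 3 and 4 at 12 days, 33 genes were higher, against 15.6% of all genes (24.5% lower). Median-ratio scaling gave 34 and split all genes into 16.2% higher and 15.6% lower.

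In the QpE cultures, 17 of 38 were higher at 24 h than at 6 h (median 0.31) and 35 of 38 at 12 days than at 24 h (median 0.89), with none lower. Of all genes, 12.5% were higher and 11.2% lower in the first of these and 16.9% and 25.8% in the second. With TPM scaling the first gave 6 genes (8.25% of all genes higher, 16.2% lower), and with median-ratio scaling the second gave 37 (20.9% and 21%). Ndufa10 had 53.6, 43.3, 50.2, 54.9 and 51.9 FPKM at 24 h and the largest rise to 12 days, 1.65 ± 0.12 (SE; adjusted p = 1.14e-05), followed by Ndufv1 with 1.44 ± 0.10 (SE; adjusted p = 1.07e-05). Ndufa2, Ndufa3 and Ndufb7 were not called, and without cultures 3 and 4 at 12 days 35 genes were higher, against 18% of all genes (28.4% lower). The comparison of controls over time and that of QpE with control at 12 days share the 12 day controls, so their calls are not set against each other. Ndufa5 had 46.9 ± 2.90 FPKM (SD, n = 5) in controls at 24 h, 54.3 ± 7.39 at 12 days and 88.1 ± 14.5 with QpE at 12 days.

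**Figure D3:**
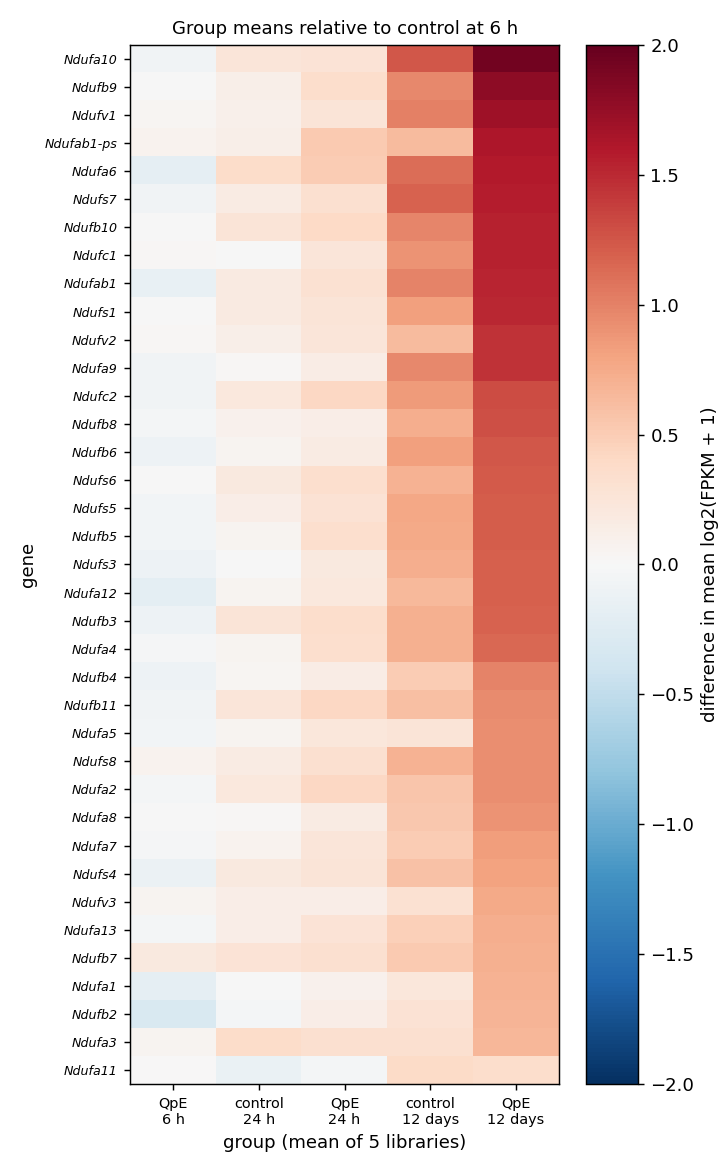
Mean log2(FPKM + 1) of 37 of the 38 tested genes in the 5 other groups minus the gene's mean in controls at 6 h, sorted by the value in QpE at 12 days; red is higher and blue lower, on a scale from -2 to 2. The median over all 38 genes is 0.70 in controls and 1.20 in QpE at 12 days, and the values in QpE at 12 days run from 0.35 for Ndufa11 to 1.93 for Ndufa10.

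The other genes that make or accompany complex I were described from lists. Their counts stand beside 5.06% higher and 7.17% lower among all genes tested at 12 days, or 8.77% and 10.3% with the culture block. Of 17 tested assembly factors, which build the complex but do not stay in it, 5 were higher with QpE at 12 days and none lower (median 0.30), with Ndufaf4 (0.57 ± 0.10 SE), Nubpl, which delivers iron-sulfur clusters (0.67 ± 0.14), and Timmdc1 (0.37 ± 0.09) at the smallest p. With the culture block 8 were higher. Of 14 iron-sulfur cluster assembly genes 5 were higher (median 0.36), with the mitochondrial chaperone Hspa9 at 0.70 ± 0.14, Bola3 at 0.42 ± 0.08 and Isca1 at 0.58 ± 0.12 (SE). The block made these 8. Among 9 regulators of mitochondrial genes the median was 0.06 and 2 were higher, the coactivator Ppargc1b (0.94 ± 0.17 SE) and Tfam (0.34 ± 0.09 SE), which packages and transcribes mitochondrial DNA. With the block 1 of the 9 was higher.

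Genes of the other respiratory complexes were also called higher at 12 days, where 5.06% of all genes were higher, or 8.77% with the culture block. All 4 complex II genes were higher, Sdha by 0.56 ± 0.15, Sdhb by 0.30 ± 0.08, Sdhc by 0.40 ± 0.11 and Sdhd by 0.34 ± 0.09 (SE). Of the nuclear genes, 4 of 9 of complex III, 6 of 13 of complex IV and 4 of 16 of complex V were higher and none was lower, with medians of 0.53, 0.45 and 0.44. The block made these 8, 8 and 11. Uqcr10 (0.53 ± 0.10 SE) of complex III, Cox7b (0.60 ± 0.10 SE) of complex IV and Atp5f1 (0.56 ± 0.10 SE) of complex V had the smallest p in their lists. No test compared these lists with the complex I genes.

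The 7 complex I subunits that mitochondrial DNA encodes were erratic in this table. In QpE at 12 days mt-Nd1 was listed at 0, 2818, 1197, 0 and 0 FPKM in cultures 1 to 5, and mt-Nd5 at 955, 0, 37.6, 8.65 and 0 FPKM. Different genes of the set were at 0 in different libraries, and every cell uses them, so a 0 here can be a failed estimate. None of the 7 was called at 12 days (with the block 1 was called lower with QpE, as were 10.3% of all genes), and no fold is given.

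Ndufv3, an accessory subunit of the matrix arm (chr17:31520115-31531331, plus strand, GRCm38), was also read as separate transcripts. The coding parts of its 3-exon and 4-exon transcripts differ by 1 exon of 1092 bases at chr17:31527310-31528401, which lies between exon 2 (chr17:31521569-31521692) and the last exon (chr17:31531110-31531331). Their first exons also differ before the coding part, with 147 bases in the 3-exon form and 144 in the 4-exon form. The stretches across the junctions are shown because they separate the forms, with the exon after each junction in capitals.
3-exon form, exon 2 to last exon: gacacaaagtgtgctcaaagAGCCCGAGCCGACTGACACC
4-exon form, exon 2 to exon 3: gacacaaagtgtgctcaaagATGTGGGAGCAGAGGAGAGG
4-exon form, exon 3 to last exon: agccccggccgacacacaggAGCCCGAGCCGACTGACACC
Both forms share the 20 bases before the first junction and the 20 bases after the last.

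The forms were compared in 3 analyses, run in the order given and all chosen after the shares had been seen. As a share of the gene's FPKM, the 4-exon form of Ndufv3 was 22.9% ± 3.31 at 24 h and 41.3% ± 6.82 at 12 days in controls, and 21.8% ± 2.38 and 41.8% ± 9.99 with QpE (SD, n = 5). The times did not overlap in either arm. In the first analysis, exact permutation tests of the share over 13 complex I genes with a second transcript of at least 20% gave p = 0.007937 in both arms, the smallest 5 against 5 can give, and an adjusted p of 0.31 over the 78 tests run. None of the 78 passed. In the second, limma on the share over all genes with a second transcript gave an adjusted p of 0.451 in controls and 0.266 with QpE for Ndufv3, so the change in share did not pass there either. Of all genes, 0.0759% and 0.0507% were called.

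The third analysis was of the level of each transcript, not of its share. The 4-exon form of Ndufv3 was at 28.5, 34.7, 29.5, 26.7 and 33.6 FPKM in controls at 24 h and at 66.7, 67.0, 50.4, 49.5 and 77.7 FPKM in controls at 12 days. With QpE it was at 30.4, 29.3, 27.3, 27.1 and 31.1 FPKM at 24 h and 113.5, 95.9, 68.2, 58.7 and 97.5 FPKM at 12 days. The 12 day libraries lay above all 24 h libraries in both arms. Fitted with limma over 31716 single transcripts, the change in Ndufv3 was 0.99 ± 0.14 in controls (SE; adjusted p = 0.0029) and 1.51 ± 0.17 with QpE (SE; adjusted p = 0.000665), where 2.87% and 5.38% of all transcripts were called higher. The 3-exon form of Ndufv3 was at 102 ± 8.37 FPKM at 24 h and 86.6 ± 8.89 FPKM at 12 days in controls (SD, n = 5), and its differences of -0.24 ± 0.09 in controls and 0.17 ± 0.17 with QpE (SE) were not called. QpE and control did not differ past the threshold in either form at 12 days (0.45 ± 0.20 for the 4-exon form and 0.44 ± 0.17 for the 3-exon form, SE; 0.126% of transcripts were called higher). FPKM of single transcripts rest on how the authors' quantification divided shared reads.

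**Figure D4:**
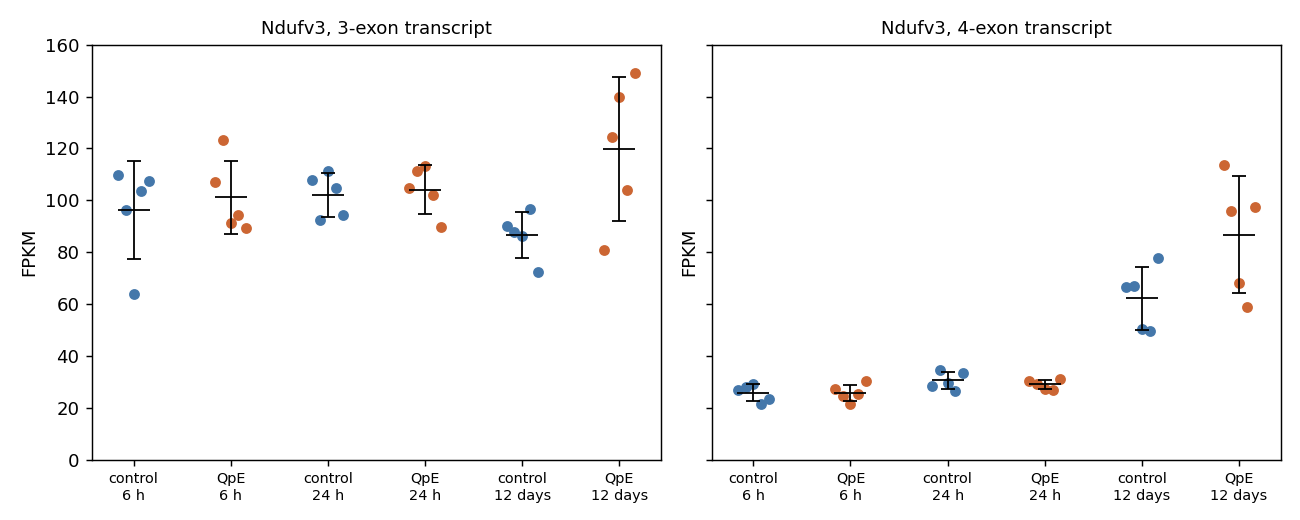
FPKM of the 3-exon (left) and 4-exon (right) transcripts of Ndufv3 in each library (points, cultures 1 to 5 from left to right in a group), with group mean and SD. The 4-exon form lies between 21.5 and 34.7 FPKM in all libraries at 6 h and 24 h and between 49.5 and 113.5 FPKM at 12 days.

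Promoters of the complex I genes were read from RefSeq (GRCm38.p6), as 300 bases from 250 before to 50 after the start, for the 33 of 38 tested genes that matched. The motifs, chosen after the results were known, are those of factors linked to nuclear mitochondrial genes, searched on both strands. The NRF1 motif (10 letters, in capitals in the stretches printed below, with any base in the sixth place, or the fifth where the match is on the other strand) was in 7 of 33 (21.2%), against 4.78% of all promoters and 11.5% of those of tested genes. The YY1 motif (10 letters, also in capitals below) was in 4 (12.1%), against 0.899% and 2.39%. The ETS motif CCGGAAG was in 4 (12.1%, against 9.12% and 19.9%), the CREB motif TGACGTCA in 3 (9.09%, against 1.88% and 3.41%), the SP1 motif GGGCGGGG in 6 (18.2%, against 17.8% and 34.6%) and the ERR motif TCAAGGTCA in none (against 0.407% and 0.235%). In 14 of the 33 none of the 6 was found. No 2 different motifs overlapped in these promoters. A match is a description of letters, not of binding.

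The NRF1 matches are shown with 10 bases on either side, in gene direction, to let their flanks be compared, with the motif in capitals. They lie at chr16:37654540-37654569, chr16:37654428-37654457 and chr16:37654371-37654400 in Ndufb4, chr4:123718265-123718294 in Ndufs5, chr13:73328479-73328508 in Ndufs6, chr6:24527697-24527726 in Ndufa5, chr15:82354249-82354278 in Ndufa6, chr2:36049349-36049378 in Ndufa8 (minus strand genes) and chr17:56717692-56717721 in Ndufa11 (plus strand).
Ndufb4, 191 bases before the start: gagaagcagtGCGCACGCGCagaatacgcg
Ndufb4, 79 before: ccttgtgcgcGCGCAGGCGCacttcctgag
Ndufb4, 22 before: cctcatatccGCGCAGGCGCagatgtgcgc
Ndufs5, 98 before: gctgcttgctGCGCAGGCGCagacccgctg
Ndufs6, 16 before: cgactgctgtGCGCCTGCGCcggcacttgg
Ndufa5, 190 before: tgtgtgagctGCGCAGGCGCaaatctacct
Ndufa6, 23 after: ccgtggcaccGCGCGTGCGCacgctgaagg
Ndufa8, 30 before: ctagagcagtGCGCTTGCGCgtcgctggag
Ndufa11, 60 before: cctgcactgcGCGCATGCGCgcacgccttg
Of these 7 genes, Ndufb4, Ndufs5, Ndufs6, Ndufa5 and Ndufa6 were called higher with QpE at 12 days and Ndufa8 and Ndufa11 were not. This stands beside 21 of all 38 tested genes and is given as a description. A link between motif and call was not tested.

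The 4 YY1 matches all lay just after the start, at 24 to 35 bases. The stretches are at chr6:126849095-126849124 (Ndufa9), chr13:114388045-114388074 (Ndufs4), chr13:73328433-73328462 (Ndufs6), all on the minus strand, and chr10:80249469-80249498 (Ndufs7, plus strand), and are shown for the shared place of the motif, in capitals.
Ndufa9: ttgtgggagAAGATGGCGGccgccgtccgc
Ndufs4: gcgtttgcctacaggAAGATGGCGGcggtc
Ndufs6: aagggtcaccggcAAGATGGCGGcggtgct
Ndufs7: ggccAAGATGGCGGcgctggcgggtgagtg
Of these, Ndufa9 and Ndufs6 were called higher with QpE at 12 days and Ndufs4 and Ndufs7 were not, beside 21 of all 38 tested genes. Ndufv2, the core gene with the largest difference, held neither motif. The 200 bases before its start (chr17:66101560-66101759, minus strand) hold 1 SP1 match, in capitals.
Ndufv2: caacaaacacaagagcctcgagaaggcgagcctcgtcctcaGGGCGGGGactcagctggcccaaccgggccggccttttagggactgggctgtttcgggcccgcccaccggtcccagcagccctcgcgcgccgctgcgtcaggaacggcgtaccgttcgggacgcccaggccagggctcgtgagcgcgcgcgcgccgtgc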

How the data were processed

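The authors deposited FPKM values per transcript in 1 table of 150146 transcripts and 30 libraries. Per the submitters' processing notes, the tools were HISAT, HISAT2 and StringTie and the build was GRCm38. Their versions and settings, and whether strand was used, were not stated in these sources. Libraries were poly(A) and directional, with paired reads, per the labels' protocols. In 10 libraries 11 deposited values lay just below 0 (lowest -7e-05) and were set to 0.

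Transcript FPKM were summed per gene. Of 16259 unnamed transcripts, 10567 were joined to the only named gene of their locus. Of 57490 gene rows, 14626 reached 1 FPKM in at least 5 libraries. FPKM are not counts, so values were tested as log2(FPKM + 1) with limma 3.58.1 (R 4.3.3, mean-variance trend), in the compared groups only, two-sided, with Benjamini-Hochberg adjustment over all rows at 0.05. The pseudocount of 1 understates changes of genes of low level. FPKM is relative to each library's total. The fits were run on simulated data in which genes varied independently of each other. The smallest change planted there was larger than the median difference of the complex I genes with QpE at 12 days. Recovery of differences of that size was therefore not tested. Depth was estimated from steps between low FPKM values, of which 43.3% to 47.3% lay within 0.05 of whole reads, too few to recover counts.

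The labels number cultures 1 to 5 in each group. At 12 days, deviations of same-numbered control and QpE libraries correlated at 0.19, 0.19, 0.33, 0.38 and 0.16, all over 0.1. The replicate block treats these libraries as pairs on that ground. Cultures 3 and 4, which stood apart in adipocyte markers, correlated best with their own number in both directions, and cultures 1, 2 and 5 did not. The pairing is therefore uncertain, and so are results that use it. That comes from the data, as the labels name no shared day.

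Members, lists, designs and tests were chosen with earlier results of these data known. Values in every library of the 12 day comparison are given for the 7 core subunits, the 5 other largest rises, each tested gene not called, the 3 most and 3 least abundant genes and Ndufa4. Other lists are named by their 3 smallest p, or in full with 8 or fewer tested genes, of which the text gives examples. 1 gene that this rule names is counted in the totals and is not reported here. Promoter motifs, the 3 transcript analyses (scipy 1.17.1 for the permutation tests) and the fit without cultures 3 and 4 were chosen after seeing the data. Alternatives were the spread shared by all 30 libraries, a replicate block, pseudocounts of 0.1 and 5, no filter or a filter at 5 FPKM, median-ratio and TPM scaling, named transcripts only, the most abundant transcript only, and leaving out each library. No protein sequences were used here.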

Additional observations from a re-analysis of the deposited data

Results flagged for a closer look

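Within groups of 5, 15 of 222 gene and group combinations (6.76%) held a library far from the other 4, where chance flags about 1 in 20. In 5 of the 15 the library was QpE culture 5 at 6 h: it was the lowest for Ndufb2 (17.7 FPKM, others 44.4 to 51.0), Ndufb3 (36.3), Ndufb4 (33.5), Ndufs4 (22.9) and Ndufa9 (69.4). In 3 it was QpE culture 5 at 24 h, the lowest for Ndufa9 (76.5), Ndufa13 (69.8) and Ndufb6 (49.4). The other 7 fell in 6 libraries. Ndufa11 was high in control culture 5 at 6 h (20.02, others 18.1 to 18.2) and in QpE culture 1 at 6 h (36.1, others 14.98 to 16.2). Ndufv3 was low in control culture 3 at 6 h (93.5). At 12 days with QpE, Ndufs8 (67.6) and Ndufa4 (487.6) were low in culture 4, Ndufa10 (121.9) was low in culture 2 and Ndufab1 (78.9) was high in culture 5.

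The QpE difference of Ndufv2 was larger at 12 days than at 24 h, by 0.69 on the log2 scale in the interaction test (limma adjusted p = 0.0304).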

How the results depend on the processing

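The count of complex I genes called higher with QpE at 12 days was 21 in the fit as reported. It was 11 with no filter on low values, 9 with the most abundant transcript only, 2 (Ndufs1 and Ndufv2) without cultures 3 and 4 in both groups, and 11 to 22 when each library was left out in turn. Most shares of all genes called under the alternatives are not given. The counts in this section therefore do not show whether a change is particular to these genes. The medians of the 38 genes moved by less than the spread between libraries under every alternative for every comparison, and no member was called lower with QpE at 12 days under any. Ndufa5, Ndufa6, Ndufb4, Ndufb9, Ndufb10, Ndufc2, Ndufs5 and Ndufv1 were called in all 20 of the other settings and single left-out libraries, but none of these 8 without cultures 3 and 4 together. Of the genes called in the fit as reported, Ndufb8 and Ndufb11 passed in the fewest of the 20, in 7. Ndufv3 passed in 10, Ndufa9 and Ndufb5 in 11, and Ndufa4 in 13. Ndufa11 turned above 0 with named transcripts only (0.061), with the most abundant transcript (0.061), without QpE culture 3 (0.0274), without QpE culture 4 (0.0041) and without cultures 3 and 4 (0.082), and lay between -0.0879 and 0.0274 with each library left out, and Ndufa3 turned below 0 with the most abundant transcript (-1.57).

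For controls at 24 h against 6 h the count of 7 became 2 with the spread shared by all 30 libraries, 4 with no filter, 3 with TPM scaling, 4 with named transcripts, 2 with the most abundant transcript and 4 to 7 with each library left out. For controls at 12 days against 24 h the count of 31 became 20 with the most abundant transcript. For QpE at 24 h against 6 h the count of 17 became 9 with no filter, 6 with TPM scaling, 8 with named transcripts, 4 with the most abundant transcript and 8 to 24 with each library left out. For the interaction the count of 1 became 6 with the shared spread, 5 with the replicate block, 0 with no filter, 0 with the most abundant transcript, 2 without cultures 3 and 4 at 12 days and 0 to 4 with each library left out. The cause of these moves was not tested, except that fewer samples and more rows tested enter some fits.

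The replicate block gave 27 genes at 12 days. Same-numbered libraries of the other comparisons did not all correlate above 0.1, so their numbers are not taken to pair them. For QpE and control at 6 h, cultures 1 to 4 did (0.13 to 0.20) and culture 5 did not (0.043). There the replicate block gave 0 genes at 6 h and 24 h, 5 for controls at 24 h against 6 h, 31 for controls at 12 days against 24 h, and 18 and 36 for QpE over time. Depth limits were not drawn, since FPKM hold no counts.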
